A study of Mus musculus with 3 samples.

Results

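The granzymes and perforin were followed as 9 genes, Gzma, Gzmb, Gzmc, Gzmd, Gzme, Gzmf, Gzmg, Gzmk and Prf1, chosen by symbol from the 32285 genes counted in immune cells of mouse mammary tumors. All 9 were present in the count matrices. Female BALB/c mice of 6 to 8 weeks received 200000 4T1-luc mammary carcinoma cells in the 4th mammary fat pad, and live CD45+ cells were sorted from the tumors on day 14. The vehicle group carried 4T1-luc cells with intact p38α and received DPBS, and the p38i group carried the same cells and received the p38α/β inhibitor LY2228820 (ralimetinib) at 30 mg/kg by daily gavage, both from day 4 for 10 days. The p38KO group carried 1 clone of 4T1 cells, H9, in which CRISPR-Cas9 had inactivated p38α (Mapk14), and its treatment is given as NA. The deletion was therefore in the tumor cells only, the immune cells of these mice were p38 wild type, and Mapk14 in the sorted leukocytes does not check the genotype. Tumors of 3 mice were pooled into 1 single-cell library per group. With 1 library per condition, library and condition cannot be told apart, and no test of a condition was possible.

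Cytotoxic lymphocytes carry granzymes, serine proteases, in granules together with perforin, which forms pores in the membrane of the target cell and lets the proteases enter. Granzyme B cleaves after aspartate, granzyme A and granzyme K are tryptases, and granzymes C to G are rodent proteases encoded beside granzyme B. CD8+ T cells and natural killer (NK) cells are the main carriers in tumors, and regulatory T cells can also carry granzyme B.

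Of the 9 genes 8 lie in 2 clusters. On GRCm38 (GENCODE M21), Gzma occupies chr13:113093825-113100981 and Gzmk chr13:113171608-113225908. The granzyme B cluster on chromosome 14 holds Gzme at chr14:56117626-56120625, Gzmd at chr14:56129556-56132608, Gzmg at chr14:56156582-56159579, Gzmf at chr14:56205263-56211417, Gzmc at chr14:56231441-56234656 and Gzmb at chr14:56258838-56262260. All of these are on the minus strand, whereas Prf1 is on the plus strand at chr10:61297833-61304680.

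The promoters of Gzmb, Prf1 and Gzma are shown because these genes carry most of the comparisons between classes and libraries. The 250 bases before the RefSeq start (GRCm38.p6) were read 5′ to 3′ for Gzmb from chr14:56262335-56262584 (minus strand), for Prf1 from chr10:61297586-61297835 (plus strand) and for Gzma from chr13:113100982-113101231 (minus strand). Capitals mark the Runx letters TGTGGT, or their complement ACCACA on the other strand, and, in Gzmb alone, an AP-1 match to TGANTCA.
Gzmb: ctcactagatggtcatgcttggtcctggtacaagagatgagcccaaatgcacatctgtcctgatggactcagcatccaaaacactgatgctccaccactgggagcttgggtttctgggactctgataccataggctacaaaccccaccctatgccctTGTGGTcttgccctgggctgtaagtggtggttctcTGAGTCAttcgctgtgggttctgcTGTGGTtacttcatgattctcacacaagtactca
Prf1: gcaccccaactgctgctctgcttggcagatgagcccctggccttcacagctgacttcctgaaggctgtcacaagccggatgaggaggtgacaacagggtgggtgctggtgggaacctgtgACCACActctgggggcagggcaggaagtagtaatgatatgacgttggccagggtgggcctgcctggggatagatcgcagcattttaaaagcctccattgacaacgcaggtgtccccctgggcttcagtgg
Gzma: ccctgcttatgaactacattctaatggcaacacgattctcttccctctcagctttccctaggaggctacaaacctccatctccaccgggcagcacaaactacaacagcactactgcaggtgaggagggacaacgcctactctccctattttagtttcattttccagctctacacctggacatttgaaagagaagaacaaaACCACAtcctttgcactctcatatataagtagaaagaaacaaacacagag
The Runx letters, sought on both strands, were found in 8 of the 9 promoters, in all but Gzmk, and in 14.0% of all 32851 RefSeq promoter windows of this length. The AP-1 letters were in 1 member and in 6.75% of all promoters. The T-box letters GGTGTGA were in 1 member, Gzmk, and in 3.33% of all promoters. No match overlapped a match to another motif. A match is a description of the letters and not of a bound site.

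The 5 neighboring genes Gzmc, Gzmd, Gzme, Gzmf and Gzmg shared a stretch of 60 bases that ended 10 to 35 bases before their starts, which is shown as an example of how alike they are. It lies outside the transcripts and does not bear on how reads are assigned. Capitals mark the 8 letters in which the cyclic AMP response element core GACGTCA is read on both strands.
Gzmc: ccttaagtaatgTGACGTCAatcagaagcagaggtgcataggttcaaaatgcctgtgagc
Gzmg: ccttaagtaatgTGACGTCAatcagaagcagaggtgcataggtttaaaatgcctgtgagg
Gzmf: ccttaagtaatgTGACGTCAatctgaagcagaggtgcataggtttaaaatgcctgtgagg
Gzmd: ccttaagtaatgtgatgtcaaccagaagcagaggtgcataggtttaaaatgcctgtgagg
Gzme: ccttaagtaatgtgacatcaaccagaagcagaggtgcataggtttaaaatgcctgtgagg
The stretches were read on the minus strand from chr14:56234667-56234726 for Gzmc, chr14:56159609-56159668 for Gzmg, chr14:56211442-56211501 for Gzmf, chr14:56132607-56132666 for Gzmd and chr14:56120640-56120699 for Gzme. Counted from 1 at the 5′ end of the stretch and against Gzmc, Gzmd differed by C16T, T22C, C45T and C60G, and Gzme by G17A, T22C, C45T and C60G. Gzmf differed by A24T, C45T and C60G, and Gzmg by C45T and C60G. The core was whole in Gzmc, Gzmf and Gzmg and broken in Gzmd by C16T and in Gzme by G17A. Across all promoters 2.78% held it. Gzmd to Gzmg were also alike where 3′ libraries read them, and Gzmc was much less so. Over the last 500 bases of the transcript, the 10 pairs among Gzmc to Gzmg had a median identity of 83.9% (54.9 to 89.4%). Within these, the pairs that include Gzmc were at 54.9 to 58.2%. The other 26 pairs of members had a median of 50.9%. Of the 50-base words in that window, 19.96% in Gzmd, 15.3% in Gzme, 7.10% in Gzmf and 5.76% in Gzmg also occurred in another member, and none did in Gzma, Gzmb, Gzmc, Gzmk or Prf1. Reads of Gzmd to Gzmg could thus have been divided between them or dropped, and their separate values are uncertain.

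The vehicle, p38i and p38KO libraries held 4588, 6343 and 5212 barcodes. Of these, 3820, 4793 and 3859 cells had at least 1500 unique molecular identifiers (UMIs, 1 per captured transcript), at least 300 genes and at most 20% mitochondrial UMIs. Their median depth was 3162, 3038 and 3317 UMIs. Between 5 and 9 barcodes occurred in a pair of libraries. Cells with Cd3e were called Cd8a T, Cd4 T or Trdc T where they held that transcript and neither of the other two, cells with Ncr1 and without Cd3e were called Ncr1 NK, and cells with Csf3r and neither Cd3e nor Ncr1 were called neutrophils and served as background. In the order vehicle, p38i and p38KO, there were 278, 244 and 164 Cd8a T cells, 159, 187 and 223 Cd4 T cells, 31, 37 and 29 Trdc T cells and 129, 125 and 162 Ncr1 NK cells. Cd8b1 was detected in 91.8 to 94.5% of Cd8a T cells and in none of the NK cells. Cd3d was detected in 91.9 to 98.2% of the cells of the T classes and at most 6.79% of NK cells. Of the other T cell markers, Trac was in at most 7.2% of NK cells, Cd3g in 9.6 to 11.6% and Trbc2 in 32.8 to 42.6%. Klre1 was detected in 61.7 to 76.0% of NK cells. Tcrg-C1 was detected in 67.6 to 80.6% of Trdc T cells. The other gamma-delta T cell markers differed between libraries in these cells, with Trdv4 in 38.7, 29.7 and 0% and Cd163l1 in 48.4, 18.9 and 6.90%. Trac, of the alpha-beta receptor, was in 22.6, 8.11 and 34.5%, so the class was least well marked in p38KO. The epithelial marker Krt18 reached at most 14.6 CPM (UMIs per 1000000 UMIs) in any lymphocyte class. Macrophage C1qa, in contrast, stood at 313, 8.36 and 1145 CPM in NK cells and at 171, 7.08 and 626 CPM in Cd8a T cells, in the same order. The neutrophil markers S100a8, S100a9, Cxcr2 and Retnlg ran differently and summed to 2960, 6842 and 3100 CPM in Cd8a T, 1446, 4880 and 2982 CPM in Cd4 T, 336, 6240 and 5572 CPM in Trdc T and 3885, 2509 and 6008 CPM in NK cells. Their part in the results was not tested. Leaving out the T and NK cells that held C1qa or Csf3r moved 12 of 38 log2 ratios of single members by more than their counting interval, and those that crossed 2-fold or lost their 20 UMIs are named with the results.

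Levels are given as CPM, the UMIs of a gene per 1000000 UMIs of all cells of the class in the library. Intervals are exact 95% Poisson intervals for CPM and exact 95% Clopper-Pearson intervals for shares of cells. They cover counting error only and not the spread between mice, which pooling hid. UMIs were counted at the 3′ end of transcripts and were not scaled by length, so levels were compared within a gene. The background in neutrophils was low for all 9 genes, with no member above 6.99 CPM or in more than 1.62% of neutrophils.

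Gzma was mainly a transcript of NK cells. In NK cells Gzma stood at 5656 CPM (5495 to 5821) with vehicle, 6099.5 CPM (5933 to 6269) with p38i and 3394 CPM (3294 to 3496) with p38KO. NK cells held 83.2% of the Gzma UMIs of all kept cells. In Cd8a T cells the levels were 184 CPM (166 to 203), 230 CPM (207 to 255) and 573 CPM (530 to 619). Trdc T cells followed with 43.9 CPM (20.1 to 83.3), 73.0 CPM (38.9 to 125) and 71.7 CPM (40.2 to 118), and Cd4 T cells came last among the lymphocytes with 17.5, 3.27 and 5.02 CPM. The intervals of Trdc T and Cd4 T cells overlapped with vehicle but not with p38i or p38KO, and Cd4 T cells with p38i and p38KO overlapped the neutrophil background of 6.08 and 3.30 CPM.

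Gzmb was the member spread most widely over lymphocytes. Its levels were 1767, 1989 and 933 CPM in NK cells, 947, 523 and 420.4 CPM in Cd8a T cells, 556, 539 and 717 CPM in Trdc T cells and 607, 400.4 and 189 CPM in Cd4 T cells. With vehicle the intervals of Trdc T (459 to 668) and Cd4 T cells (556 to 661) overlapped, and with p38i Trdc T cells (437 to 658) overlapped both Cd8a T (487 to 559.9) and Cd4 T cells (360.5 to 444). The vehicle Trdc T level rested largely on 1 cell, which held 61 of the 114 Gzmb UMIs and also 12 Ncr1 UMIs. The Trdc T cells richest in members held 39 of 96 Gzmb UMIs with p38i and 38 of 150 with p38KO. In p38KO all 4 classes were apart, with Trdc T cells above Cd8a T cells. The neutrophil background was 1.08 to 4.00 CPM.

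Prf1 was shared by NK and Cd8a T cells. NK cells held 934 CPM (869 to 1002) with vehicle, 1017 CPM (949.8 to 1088) with p38i and 568 CPM (527 to 610.3) with p38KO. Cd8a T cells held 423 CPM (396 to 451), 426 CPM (394 to 459.9) and 73.4 CPM (58.6 to 90.9). Vehicle and p38i could not be separated there at this depth, and p38KO was below both. Cd4 T cells were at 9.35, 8.73 and 2.15 CPM, although most Cd4 T cells with any member held Gzmb. In Trdc T cells Prf1 stood at 24.4 CPM (7.92 to 56.9), 225 CPM (160.5 to 306) and 28.7 CPM (10.53 to 62.5), from only 5, 40 and 6 UMIs.

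Gzmk stood at 65.3, 65.0 and 26.2 CPM in Cd8a T cells, which held 80.0% of its UMIs with vehicle, 73.2% with p38i and 44.1% (30 of 68) with p38KO. NK cells held 3.63, 20.3 and 12.4 CPM and Cd4 T cells 18.7, 2.18 and 3.58 CPM. No Gzmk UMI was found in Trdc T cells. A count of 0 in 31 vehicle, 37 p38i and 29 p38KO cells still allows a share with a UMI among such cells. An approximate limit for it, 3 cells over the number counted, is 9.68, 8.11 and 10.3%. This is not the exact Clopper-Pearson limit, and it sets no limit on cells that express Gzmk below detection.

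Gzmc was mainly a transcript of NK cells, with 2039 CPM (1943 to 2139), 2331 CPM (2229 to 2437) and 4815 CPM (4696 to 4936). It stood at 148, 6.44 and 6.99 CPM in Cd8a T cells, at 43.9, 67.4 and 201 CPM in Trdc T cells and at 1.17, 3.27 and 174 CPM in Cd4 T cells. The other 4 genes of the cluster were each detected in at most 12 cells of a class in a library. Gzmd was at 232, 645 and 53.5 CPM in NK cells and 102, 41.2 and 0 CPM in Cd8a T cells. Gzme was at 85.9, 292 and 0.775 CPM in NK cells and 90.9, 9.66 and 0 CPM in Cd8a T cells. Gzmf was at 25.4, 178 and 55.1 CPM in NK cells and 441, 60.5 and 27.1 CPM in Cd8a T cells. Gzmg was at 13.3, 75.2 and 0 CPM in NK cells and was found in a single Cd8a T cell, of the vehicle library. Each of these 4 had at most 21 UMIs in the Cd4 T and at most 6 UMIs in the Trdc T cells of a library.

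**Figure D1:**
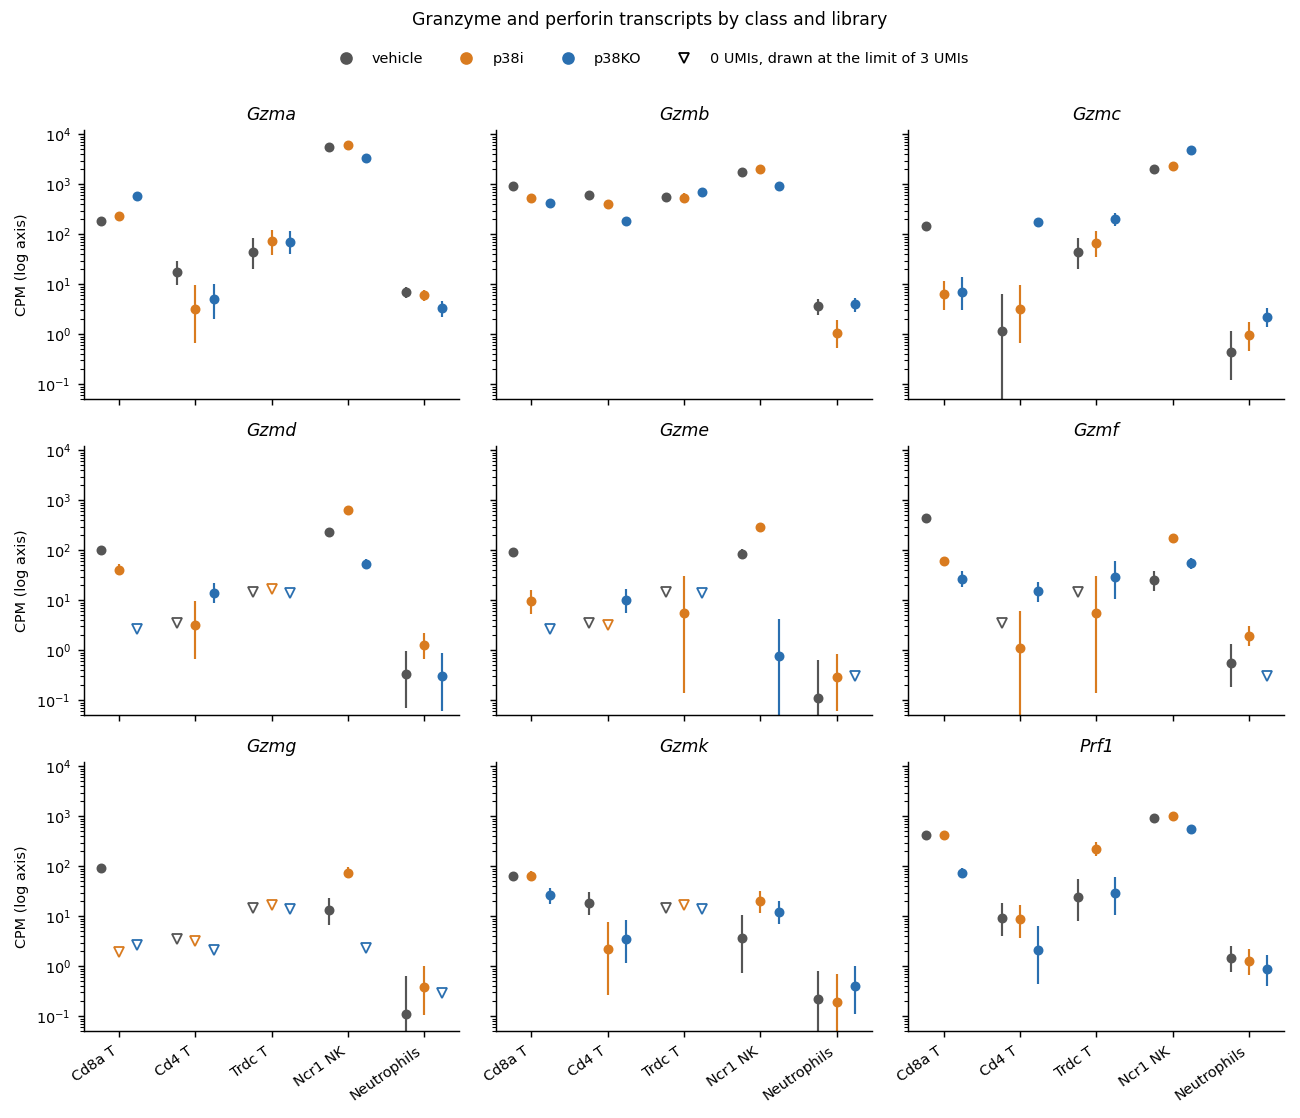
CPM on a log axis of the 9 members (panels) in the 5 classes (x axis) with vehicle, p38i and p38KO and exact 95% Poisson bars, and open triangles at the level of 3 UMIs where none was counted. Gzma and Gzmc peak in NK cells in all 3 libraries, Gzmb lies between 189 and 1989 CPM in all 4 lymphocyte classes, and neutrophils stay at or below 6.99 CPM.

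The share of cells with a member separated genes carried by most cells of a class from genes carried by few. Shares are given at full depth and, in brackets, after every cell was thinned to 1500 UMIs, since classes and libraries differed in depth. Gzma was detected in 66.7% (64.3%), 77.6% (75.2%) and 53.7% (50%) of NK cells, and positive cells held a median of 43.5, 36.0 and 46.0 UMIs. Gzma was detected in only 8.99% (7.91%), 8.61% (6.15%) and 10.4% (7.93%) of Cd8a T cells, so that a small set of cells held it there. Prf1 was detected in 80.6% (58.1%), 77.6% (54.4%) and 71.6% (45.1%) of NK cells. In Cd8a T cells Prf1 was detected in 59.4% (29.1%), 52.9% (27.5%) and 31.7% (10.4%), and the thinned intervals of vehicle (23.9 to 34.9%) and p38KO (6.16 to 16.1%) did not meet. Gzmb was detected in 53.6% (34.5%), 48.4% (30.3%) and 37.2% (24.4%) of Cd8a T cells, and the thinned intervals of vehicle (29.0 to 40.4%) and p38KO (18.0 to 31.7%) met. Gzmk was detected in 27.0% (8.99%), 22.1% (6.56%) and 14.6% (4.27%) of Cd8a T cells, with a median of 1 UMI per positive cell in each library. Gzmc was detected in 19.4% (14.7%), 28.8% (21.6%) and 32.1% (25.3%) of NK cells.

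**Figure D2:**
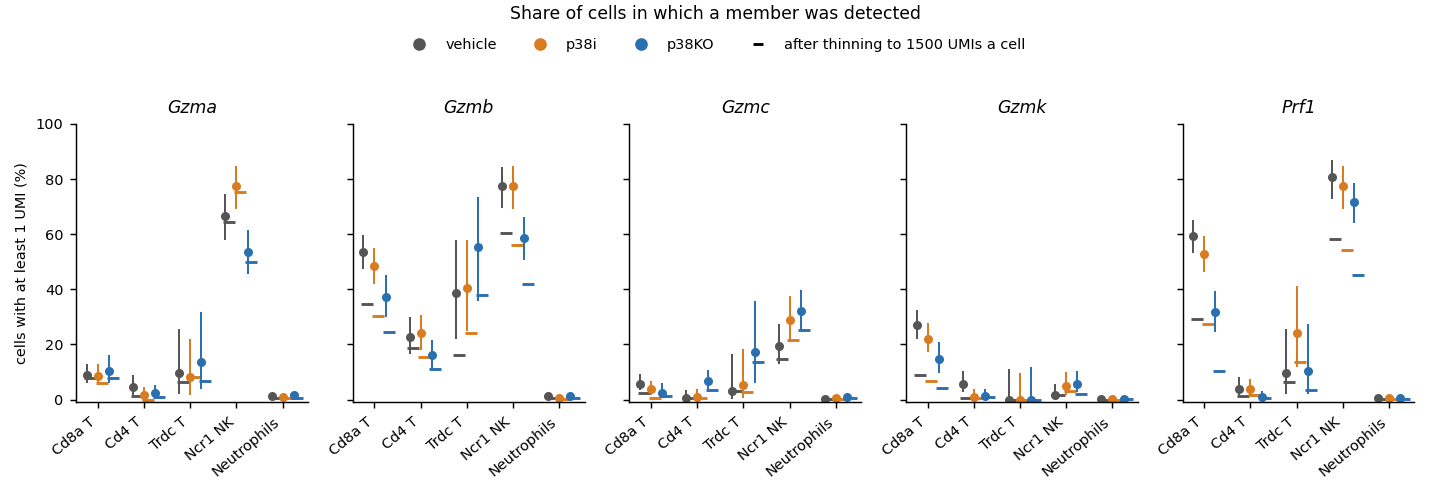
Percent of cells with at least 1 UMI (y axis) of 5 members in the 5 classes of each library, as points with exact 95% Clopper-Pearson bars, and as dashes after thinning each cell to 1500 UMIs. Prf1 in Cd8a T cells lies at 59.4, 52.9 and 31.7% in vehicle, p38i and p38KO, and Gzma in NK cells at 66.7, 77.6 and 53.7%, with dashes at 64.3, 75.2 and 50%.

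Most NK cells held several members at once. With vehicle 65.9% of NK cells held at least 3 members, with p38i 68.8% and with p38KO 54.9%, and 8.53, 6.40 and 16.7% held none. Among Cd8a T cells 20.5, 18.0 and 7.32% held at least 3 members and 17.3, 23.0 and 40.9% held none. In NK cells 90.0, 85.6 and 89.5% of the Gzmb-positive cells also had Prf1, against 80.6, 77.6 and 71.6% of all NK cells. In Cd8a T cells 63.1, 59.3 and 41.0% of the Gzmb-positive cells had Prf1, against 59.4, 52.9 and 31.7% of all Cd8a T cells. The share of cells with Prf1 was thus higher in NK cells with or without regard to Gzmb. Gzma was detected in 9 of 25, 23 of 36 and 14 of 52 Gzmc-positive NK cells, below its share of all NK cells in each library, and cells without any Gzma UMI held 1085 of 1686, 425 of 1953 and 5760 of 6209 Gzmc UMIs.

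The cluster genes Gzmc to Gzmg were concentrated in very few cells. Of the 1875 UMIs of these 5 genes in vehicle Cd8a T cells, 1681 were in a single cell, which held 36865 UMIs in all against a class median of 6356. That cell had 306 Gzmb, 259 Gzmc, 186 Gzmd, 164 Gzme, 874 Gzmf, 198 Gzmg and 34 Prf1 UMIs, together with 25 Cd3e, 30 Cd8a and 30 Cd8b1 UMIs, no Ncr1, Csf3r or C1qa UMI and 21 Pdcd1 UMIs. In NK cells 1 cell of the p38KO library held 2211 of 6209 Gzmc UMIs, and 1 cell of the p38i library held 857 of 1953 Gzmc, 375 of 540 Gzmd, 171 of 245 Gzme and all 63 Gzmg UMIs. In the NK cells with any of the 5 genes, 24 of 26, 31 of 36 and 36 of 52 also held Gzmb. These are 92.3, 86.1 and 69.2%, against 77.5, 77.6 and 58.6% of all NK cells. Gzma in Cd8a T cells was uneven as well. A single p38i cell held 218 of 357 Gzma UMIs, and a single p38KO cell 257 of 656.

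**Figure D3:**
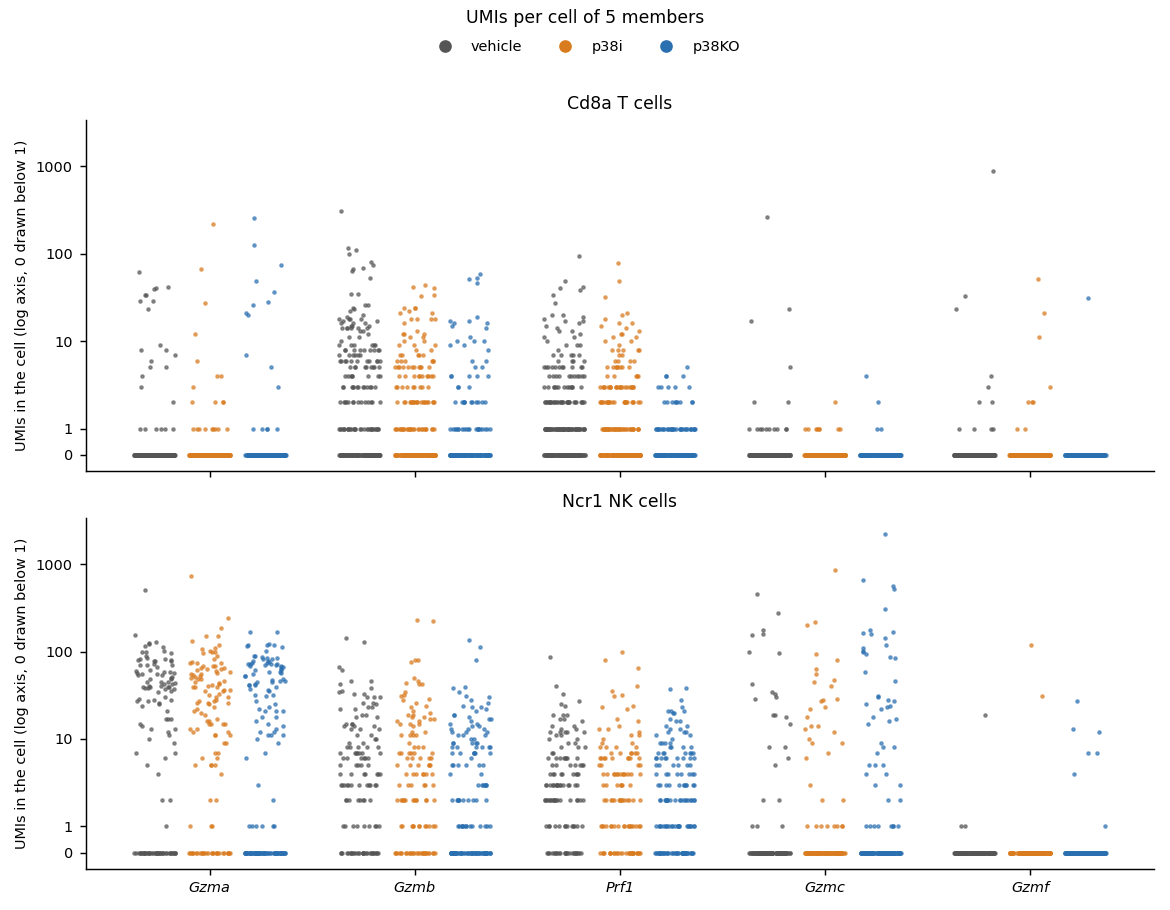
UMIs per cell on a log axis, with 0 drawn below 1, of Gzma, Gzmb, Prf1, Gzmc and Gzmf in every Cd8a T (top) and Ncr1 NK cell (bottom) of the 3 libraries, 1 point per cell. Prf1 in p38KO Cd8a T cells does not exceed 5 UMIs per cell, Gzma-positive NK cells have medians of 36.0 to 46.0 UMIs, and 1 vehicle Cd8a T cell stands alone at 874 Gzmf UMIs.

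The comparison of p38i with vehicle set tumor leukocytes of mice under systemic p38 inhibition against those of vehicle mice, from a single library each. Perforin and granzyme K levels in Cd8a T cells were close to those with vehicle, and granzyme B was lower. Gzmb was at 947 CPM with vehicle and 523 CPM with p38i, a log2 ratio of -0.86 (-0.98 to -0.74), or -1.04 without cells that held C1qa or Csf3r. The vehicle cell described above held 306 of the 2030 vehicle Gzmb UMIs, which widened this difference. Without the cell richest in members in each library, Gzmb in cells with Pdcd1 was at 740 CPM with vehicle and 528 CPM with p38i. In cells without Pdcd1 it was then at 943 and 509 CPM. Prf1 had a log2 ratio of 0.01 (-0.14 to 0.16) and Gzmk of -0.01 (-0.39 to 0.37), and both counting intervals lay within 2-fold. Gzmc had 318 UMIs with vehicle and 10 with p38i, and Gzmf 945 and 94. These 2, Gzmd, Gzme and Gzmg were at least 2-fold lower, 5 of the 9 members with 20 or more UMIs over both libraries, and none was that much higher. Of all 9049 such genes 2.35% were lower and 2.52% higher, 4.87% in all. The median log2 ratio of the members was -1.31 with Gzmg at its bound, and that of all genes was 0.06. However, the vehicle cell described above set most of this. Without the cell richest in members in each library, Gzmc was at 28.0 CPM with vehicle and 6.47 CPM with p38i (log2 ratio -2.11) and Gzme at 14.7 and 9.70 CPM (-0.60). Gzmd was then higher with p38i, at 15.7 and 41.4 CPM (1.40), as was Gzmf, at 33.7 and 60.8 CPM (0.85), and Gzmg had no UMI in either library. Gzma was at 184 CPM with vehicle and 230 CPM with p38i over all cells and at 187 and 89.9 CPM without those cells (log2 ratio -1.06). All members together were at 2494 CPM (2427 to 2561) with vehicle and 1361 CPM (1304 to 1421) with p38i, and at 1578 and 1221 CPM without those cells.

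In NK cells Gzma, Gzmb and Prf1, each carried by most cells, and Gzmc, carried by fewer, were within 2-fold between p38i and vehicle. The log2 ratio was 0.11 (0.05 to 0.17) for Gzma, 0.17 (0.07 to 0.27) for Gzmb, 0.12 (-0.02 to 0.27) for Prf1 and 0.19 (0.10 to 0.29) for Gzmc. The other 5 members, Gzmd, Gzme, Gzmf, Gzmg and Gzmk, were at least 2-fold higher with p38i, 5 of 9 against 2.63% of all 7385 genes, and none was lower, against 3.33% (5.96% either way). The members' median log2 ratio was 1.47 and that of all genes -0.02. Here too a few cells carried the difference. Without the p38i and vehicle cells richest in members, Gzmd was at 199 CPM with vehicle and 206 CPM with p38i (log2 ratio 0.04), Gzme at 78.2 and 92.2 CPM (0.24) and Gzmc at 1779 and 1366 CPM (-0.38). Gzmf was found in 3 vehicle and 2 p38i cells, Gzmg in 2 and 1, and Gzmk in 2 and 6. When each member's own top cell was left out, Gzmf was at 2.46 CPM with vehicle and 37.5 CPM with p38i, from 2 and 31 UMIs, and p38i held no Gzmg UMI. Where classes were called after thinning to 1500 UMIs, Gzmf was lower with p38i, at 537 CPM with vehicle and 256 CPM with p38i (-1.07). Cells whose Cd3e UMIs were lost on thinning could enter this NK class. At full depth the vehicle NK cells held 21 of the 1450 Gzmf UMIs of the library. Most of the others were in cells with Cd3e, 945 of them in Cd8a T cells. Of these, 874 were in 1 cell that had no Ncr1 UMI and so could not enter the NK class. Cells with Cd3e and none of Cd8a, Cd4 and Trdc held 385 Gzmf UMIs, and those with several held 92. Which of them entered the NK class on thinning was not tested.

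In Cd4 T cells Gzmb was the only member with 20 or more UMIs over both libraries. It was at 607 CPM (556 to 661) with vehicle and 400.4 CPM (360.5 to 444) with p38i, a log2 ratio of -0.60 (-0.80 to -0.40). None of this 1 member was past 2-fold, against 6.77% of 7523 genes (4.8% higher and 1.97% lower). In Trdc T cells Prf1 was 1 of 4 such members that was at least 2-fold higher with p38i, and none was lower, against 7.04% and 5.2% of 3041 genes (12.2% either way). Its log2 ratio was 3.204 (1.86 to 4.90), from 3 of 31 vehicle and 9 of 37 p38i cells, and 3.81 without cells that held C1qa or Csf3r. Without the cell richest in members in each library the Prf1 ratio was 3.12. Those cells held 0 of the 5 vehicle and 1 of the 40 p38i Prf1 UMIs, so leaving them out could move it little. Gzmb in Trdc T cells was at 556 and 539 CPM. Without cells that held C1qa or Csf3r it was at 320 and 642 CPM (log2 ratio 1.005). The vehicle cell with 61 of the 114 Gzmb UMIs held C1qa and also all 9 vehicle Gzmc UMIs. Gzmc in Trdc T cells, with 9 vehicle and 12 p38i UMIs, thus had under 20 without cells that held C1qa or Csf3r.

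The comparison of p38KO with vehicle set leukocytes of tumors of the p38α-deleted clone against those of vehicle tumors. Clone, treatment (NA against DPBS) and library differed together with the deletion and cannot be told apart from it. This comparison shares the vehicle library with the one above. In Cd8a T cells perforin (Prf1) was lower in p38KO, at 73.4 against 423 CPM, a log2 ratio of -2.53 (-2.87 to -2.20). The shift involved fewer positive cells, 52 of 164 against 165 of 278, and fewer UMIs in them, with a mean of 1.62 against 5.50 and a maximum of 5 against 93. Gzmb was at 420.4 against 947 CPM, a log2 ratio of -1.17 (-1.32 to -1.03), and Gzmk at 26.2 against 65.3 CPM, a log2 ratio of -1.32 (-1.94 to -0.74). Gzmc was at 6.99 against 148 CPM (-4.41) and Gzmf at 27.1 against 441 CPM (-4.02), while Gzmd, Gzme and Gzmg had no UMI in p38KO and were at least 39.0-fold, 34.7-fold and 35.2-fold lower against a floor of 3 UMIs. Gzma went the other way, at 573 against 184 CPM, a log2 ratio of 1.64 (1.46 to 1.82). Thus 8 of 9 members were at least 2-fold lower and 1 was higher, against 3.58% and 4.19% of all 8863 genes (7.76% either way). The median log2 ratio was -4.02 with the 3 genes at their bound and 0.07 over all genes.

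Without the cell richest in members in each library, the log2 ratio was -2.49 for Prf1, -1.48 for Gzmk and -1.001 for Gzmb. The vehicle and p38KO cells left out held 34 of 907 and 0 of 84 Prf1 UMIs. They held 0 of 140 and 3 of 30 Gzmk UMIs, so the Prf1 and Gzmk ratios could move little. Leaving these cells out brought Gzmc to -2.19 and, within 2-fold, Gzmf to -0.31 and Gzma to 0.90, and Gzmg then had no UMI in either library. The richest vehicle cell held 186 of the 219 Gzmd and 164 of the 195 Gzme UMIs, so the bounds given for Gzmd and Gzme rest largely on it. Without it Gzmd had 33 and Gzme 31 vehicle UMIs, all in cells with Pdcd1, and p38KO had none. The higher Gzma in Cd8a T cells rested on how many UMIs positive cells held, a mean of 38.6 against 15.8, since 10.4% and 8.99% of cells were positive. Without Cd8a T cells that held C1qa or Csf3r (109 of 164 p38KO and 229 of 278 vehicle cells remained), the log2 ratio was -2.62 for Prf1, -1.12 for Gzmb, -1.15 for Gzmk and 2.10 for Gzma. Klre1, a receptor gene of NK cells and of some CD8+ T cells, was detected in 48.2, 45.9 and 15.9% of vehicle, p38i and p38KO Cd8a T cells, and its part in the Prf1 values was not tested.

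In NK cells of p38KO tumors Gzmc was higher and the members carried by most NK cells were lower. Gzmc was at 4815 against 2039 CPM, a log2 ratio of 1.24 (1.16 to 1.32), and was detected in 52 of 162 against 25 of 129 cells. Gzma was at 3394 against 5656 CPM, a log2 ratio of -0.74 (-0.80 to -0.68), Gzmb at 933 against 1767 CPM, -0.92 (-1.03 to -0.81), and Prf1 at 568 against 934 CPM, -0.72 (-0.87 to -0.57). Gzmf was at 55.1 against 25.4 CPM (1.12), Gzmd at 53.5 against 232 CPM (-2.12) and Gzme at 0.775 against 85.9 CPM, a ratio that rests on 1 UMI in p38KO and whose log2 interval runs from -12.11 to -4.27. Of 7 members with 20 or more UMIs, 2 were at least 2-fold higher and 2 lower, against 5.38% and 2.71% of all 8148 genes (8.09% either way), with a members' median of -0.74 and an overall median of -0.02. Gzmc without the cell richest in members was at 3151 against 1779 CPM, a log2 ratio of 0.82. Where classes were called after thinning to 1500 UMIs, it was at 3107 against 2573 CPM (0.27), and Gzmf was lower in p38KO, at 50.5 against 537 CPM (-3.41). As above, cells whose Cd3e UMIs were lost on thinning could enter this NK class. Without the NK cells that held C1qa or Csf3r (107 of 162 and 106 of 129 remained) Gzmc was at 6863 against 2262 CPM (1.601), and the log2 ratio was -0.87 for Gzma, -0.89 for Gzmb and -0.66 for Prf1. Cpa3, a mast cell and basophil transcript, was in 11.1% of p38KO and in no vehicle NK cells, and its part in the result was not tested.

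Cd4 T cells showed opposite directions for Gzmb and Gzmc in p38KO. Gzmb was at 189 against 607 CPM, a log2 ratio of -1.69 (-1.91 to -1.47). Gzmc was at 174 CPM, from 243 UMIs in 15 of 223 cells, against 1 UMI in 159 vehicle cells, and its log2 ratio of 7.22 has an interval of 4.73 to 12.53. One cell held 113 and 3 cells 85.6% of the Gzmc UMIs in p38KO, and without the richest cell the log2 ratio was 6.32. Gzmd, with 20 UMIs, was found in 1 p38KO cell, Gzmf, with 21, in 2 cells, and neither had a vehicle UMI, so that the levels were at least 4.09-fold and 4.29-fold higher. Gzma, with 15 vehicle and 7 p38KO UMIs, and Gzmk, with 16 and 5, were lower, and both had under 20 UMIs once cells with C1qa or Csf3r were left out. Of 6 members 3 were at least 2-fold higher and 3 lower, against 6.63% and 1.64% of 8238 genes (8.27% either way). In Trdc T cells, 1 of 3 members was at least 2-fold higher, and none was lower, against 7.77% and 5.93% of 3155 genes (13.7% either way). This was Gzmc, at 201 against 43.9 CPM, a log2 ratio of 2.19 (1.14 to 3.42) from 5 of 29 and 1 of 31 cells. The vehicle cell held all 9 Gzmc UMIs and also 12 Ncr1 UMIs, and 1 p38KO cell held 25 of 42. These were the cells richest in members, and both held C1qa. Without them Gzmc had no vehicle UMI and under 20 UMIs over both libraries, as it did without cells that held C1qa or Csf3r. Gzmb was detected in 16 of 29 p38KO and 12 of 31 vehicle Trdc T cells, and the intervals of these shares overlapped. Gzma there, with 9 vehicle and 15 p38KO UMIs, had 9 and 1 without cells that held C1qa or Csf3r.

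**Figure D4:**
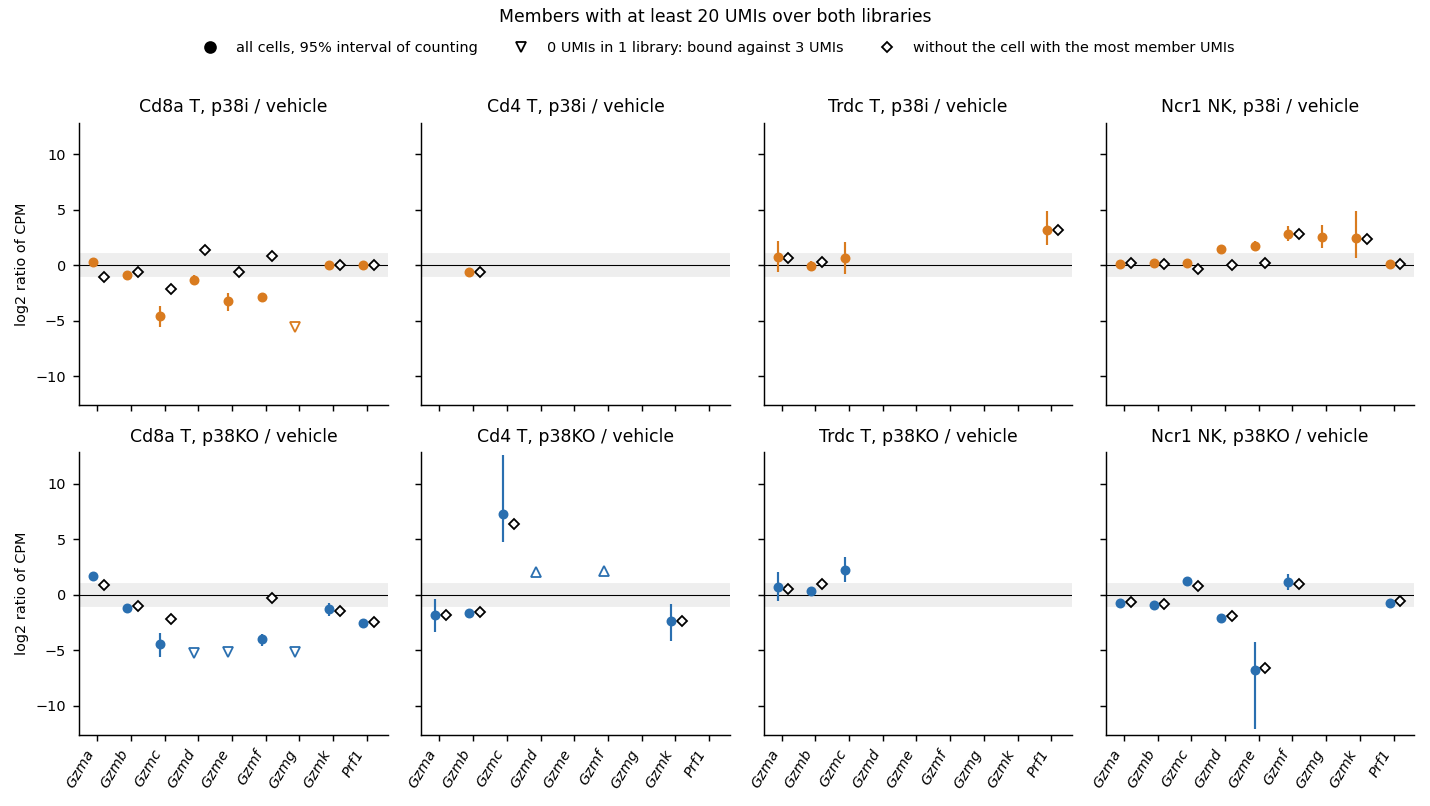
Log2 ratio of CPM to vehicle (y axis) of members with at least 20 UMIs over both libraries, for p38i (top) and p38KO (bottom) in 4 classes, with 95% counting intervals, open triangles for bounds, a gray band within 2-fold, and diamonds without the cell with the most member UMIs. Prf1, Gzmb and Gzmk in p38KO Cd8a T cells have diamonds beside their points, whereas Gzmd and Gzmf in p38i Cd8a T cells have them on the other side of 0. The p38KO and vehicle Cd8a T cells left out held few Prf1 and Gzmk UMIs, so those diamonds could move little.

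Prf1 was higher in vehicle and p38i Cd8a T cells with Pdcd1, the gene of the checkpoint receptor PD-1, than in those without it. In p38KO the counting intervals of these sets overlapped. Pdcd1 was detected in 157 of 278 vehicle, 137 of 244 p38i and 49 of 164 p38KO cells. Prf1 stood at 593, 581 and 95.5 CPM in cells with Pdcd1 and at 144, 152 and 65.4 CPM in cells without it. In p38KO, without the cell richest in members, the intervals were 64.0 to 137 CPM with Pdcd1 and 49.7 to 85.9 CPM without it. Cells with Pdcd1 held 87.1, 87.2 and 34.5% of the Prf1 UMIs. After thinning, 36.3, 37.2 and 14.3% of the cells with Pdcd1 and 19.8, 14.95 and 8.70% of those without it had Prf1. Gzmb was at 949, 528 and 471 CPM with Pdcd1 and at 943, 514 and 402 CPM without. The vehicle cell richest in members was in the set with Pdcd1, and without it Gzmb there was at 740 CPM (694 to 788), below the cells without Pdcd1 (878 to 1012), and Prf1 at 584 CPM. Gzmk was at 51.0, 61.4 and 23.1 CPM with Pdcd1 and at 88.7, 71.3 and 27.4 CPM without. The cells with Pdcd1 were deeper than those without it in vehicle (median of 7072 and 5376 UMIs) and p38i (6068 and 4812) and shallower in p38KO (4821 and 6034).

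In Cd4 T cells Gzmb sat mostly in cells with Foxp3, the factor that defines regulatory T cells. These were 44 of 159 vehicle, 41 of 187 p38i and 45 of 223 p38KO cells and held 76.7, 68.4 and 65.4% of the Gzmb UMIs. Their Gzmb level was 1578 CPM with vehicle, 1102 CPM with p38i and 471 CPM with p38KO, and the 3 intervals did not overlap. In cells without Foxp3 the level was 201, 168 and 88.3 CPM. The share of Foxp3 cells with Gzmb was alike, at 54.5, 61.0 and 53.3%, and after thinning 50%, 43.9 and 35.6%. Gzmc lay outside these cells, since 242 of the 243 Gzmc UMIs of p38KO were in cells without Foxp3, and Prf1 had at most 5 UMIs in either set of a library, at 5.48 to 15.9 CPM with Foxp3 and 0.971 to 7.26 CPM without.

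**Figure D5:**
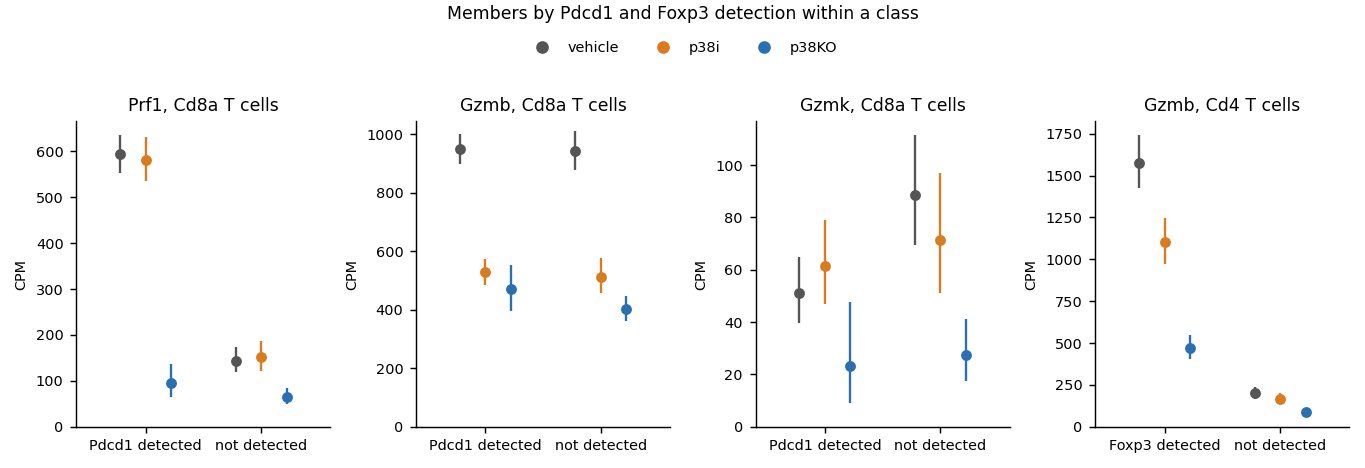
CPM (y axis from 0) of Prf1, Gzmb and Gzmk in Cd8a T cells with and without a Pdcd1 UMI and of Gzmb in Cd4 T cells with and without a Foxp3 UMI, for the 3 libraries, with exact 95% Poisson bars. Prf1 is at 593 and 581 CPM in vehicle and p38i cells with Pdcd1 and 95.5 CPM in p38KO, and Gzmb in Foxp3 cells descends from 1578 to 471 CPM.

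Cycling cells, marked by Mki67, were 38, 34 and 20 of the Cd8a T cells and 8, 11 and 13 of the NK cells. In NK cells with Mki67, Gzmc was at 3964, 2331 and 12200.0 CPM and was detected in 4 of 8, 4 of 11 and 11 of 13 cells. In NK cells without it, Gzmc was at 1771, 2331 and 3243 CPM. The p38KO cell with 2211 Gzmc UMIs was in the set with Mki67, and without it the 12 other cells were at 2673 CPM, below the cells without Mki67. In vehicle and p38i the cell richest in members was in the set without Mki67. Leaving it out brought Gzmc in that set to 1460 and 1208 CPM, below the cells with Mki67. Prf1 in Cd8a T cells was at 691, 353 and 46.2 CPM with Mki67 and at 344, 445 and 79.8 CPM without, so that p38KO was lowest in both sets.

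The genes that load, release and restrain the granule gave a mixed picture. Of 28 genes of the pathway, 27 had 20 or more UMIs in the Cd8a T comparisons. With p38i, 2 were at least 2-fold lower and none higher, beside 2.35% and 2.52% of all genes, and with p38KO 8 were lower and none higher, beside 3.58% and 4.19%. The 6 genes of granule release, among them the priming factor Unc13d, the small GTPase Rab27a and the syntaxin Stx11, were within 2-fold in both, as was Srgn, the proteoglycan of the granule matrix. With p38KO 3 of 4 clade B serpins were at least 2-fold lower in Cd8a T cells. Serpinb9, the intracellular inhibitor of granzyme B, was at 60.6, 48.9 and 21.8 CPM with vehicle, p38i and p38KO, Serpinb6b at 88.1, 70.2 and 10.49 CPM and Serpinb9b at 35.4, 18.7 and 0.874 CPM, the last from 1 UMI. Cst7, the inhibitor of granzyme-activating cathepsins, was at 286, 245 and 118 CPM, and Ifng, the gene of interferon-gamma, at 168, 224 and 69.9 CPM. Of 6 transcription factors, Prdm1 (33.6, 24.5 and 7.87 CPM) and Bhlhe40 (257, 173 and 126 CPM) were at least 2-fold lower with p38KO, whereas Tbx21 (43.8, 46.3 and 29.7 CPM), Eomes (26.1, 37.98 and 22.7 CPM) and Runx3 (375, 384 and 429 CPM) were not.

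In NK cells 25 and 26 of the 28 genes had enough UMIs. With p38i 1 was at least 2-fold lower, Prdm1, and none higher, beside 5.96% of all genes either way, and with p38KO 4 were higher and 4 lower, beside 8.09% either way. The same 3 serpins were lower with p38KO, Serpinb9 at 374, 245 and 150.4 CPM, Serpinb9b at 259, 168 and 93.8 CPM and Serpinb6b at 364, 230 and 114 CPM. The genes that were higher were Ctsh, a cathepsin, at 47.2, 44.2 and 117 CPM, Ifng at 32.7, 23.9 and 73.7 CPM, Tnfsf10, the gene of the death ligand TRAIL, at 59.3, 46.6 and 121 CPM, and Tnf at 8.47, 8.36 and 18.6 CPM. Tnf rested on 7 vehicle UMIs. Vehicle neutrophils held Ctsh at 204, Tnf at 19.1, Tnfsf10 at 2.26 and Ifng at 0.226 CPM. C1qa in NK cells was at 313 CPM with vehicle and 1145 CPM with p38KO. The pathway genes were not recounted in any class without cells that held C1qa or Csf3r, and the part of myeloid RNA was not tested. In Cd4 T cells 24 genes had enough UMIs in each comparison. With p38i 1 was higher and 2 lower, beside 6.77% of all genes either way, and with p38KO 1 was higher and 3 lower, beside 8.27%, the higher one being Ifng in both, at 15.2, 72.0 and 211 CPM. In Trdc T cells 2 of 12 were higher and 3 lower with p38i, beside 12.2% of all genes either way, and 5 of 14 were higher and 1 lower with p38KO, beside 13.7%. The other granzymes were scarce, with at most 25 Gzmm UMIs in a class of a library and none of Gzmn.

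Over the 15 values of 5 classes in 3 libraries, the genes whose log2(CPM + 10) ran most like a member were named from 9176 genes. The points share libraries and are mostly differences between classes, so the coefficients are descriptions. Gzmb ran closest to Nup210, Tbx21 and Il2rb (r = 0.98, 0.98 and 0.98) and Gzma to Eomes, Ugcg and Gem (r = 0.95, 0.94 and 0.94). Prf1 ran closest to Klre1, Gem and Ugcg (r = 0.95, 0.94 and 0.93), Gzmc to Car2, Os9 and Styk1 (r = 0.95, 0.93 and 0.92) and Gzmk to Shfl and Nrn1 (r = 0.83 and 0.82). The genes most like Gzmd were Serpinb9b and Gzme (r = 0.94 and 0.92), and those most like Gzmg were Gzme, Gzmf and Gzmd.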

How the data were processed

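Single-cell 3′ RNA libraries of sorted live CD45+ tumor cells were analysed, 1 each for vehicle, p38i and p38KO. The authors deposited filtered Cell Ranger matrices (6.0.0 in the file headers, mm10 per the labels, with R 4.2.1 and Seurat 5 in the submitters' processing notes) that hold raw UMI counts per gene and cell. Cells with at least 1500 UMIs, at least 300 genes and at most 20% mitochondrial UMIs were kept, and classes were called from Cd3e, Cd8a, Cd4, Trdc, Ncr1 and Csf3r. UMIs were summed per class and library, scaled to CPM, and given with exact Poisson, Clopper-Pearson and, for ratios, conditional binomial 95% intervals. Thinning to 1500 UMIs left out no cell, but classes called after it held fewer cells (159 against 278 vehicle Cd8a T cells, for example). Ratios counted as past 2-fold needed 20 UMIs over both libraries. Tests between cells were not used, since cells are not replicates. No doublet caller was run. Named genes were all 9 members, a list of 28 pathway genes, and per member the 3 genes of at least 200 UMIs with the highest Pearson r of log2(CPM + 10) over 15 points, of which 1 gene is not reported here. The members and lists were chosen with earlier results of these data known. Alternatives covered the cell filter, classes, scaling, free RNA and single cells, and leaving out each member's own top cell, and the richest cell from the Pdcd1, Foxp3 and Mki67 splits, was added after seeing the data. Scripts used Python 3.11.15, numpy 2.4.6, scipy 1.17.1, biopython 1.88 and matplotlib 3.10.9 and were tested on simulated data.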

Additional observations from a re-analysis of the deposited data

Results flagged for a closer look

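Several members had log2 ratios past 2-fold in opposite directions in different classes of the same library, and with 1 library per condition these differences were not tested. For p38i against vehicle, Gzmd was at 1.47 in NK cells and -1.31 in Cd8a T cells, Gzme at 1.77 and -3.24, and Gzmf at 2.81 and -2.86. For p38KO against vehicle, Gzma was at 1.64 in Cd8a T cells and -1.81 in Cd4 T cells, the latter from 15 and 7 UMIs. Gzmc was at 7.22 in Cd4 T, 2.19 in Trdc T and 1.24 in NK cells and at -4.41 in Cd8a T cells. In Trdc T cells 1 vehicle cell held all 9 Gzmc UMIs and 1 p38KO cell 25 of 42, and under 20 UMIs were left without them. Gzmf was at 1.12 in NK cells and -4.02 in Cd8a T cells. The Cd8a T values of Gzmc to Gzmf rest largely on 1 vehicle cell. In NK cells 1 p38i cell held 375 of 540 Gzmd and 171 of 245 Gzme UMIs, and 1 p38KO cell 2211 of 6209 Gzmc UMIs. Without the richest cells Gzmd and Gzme in NK cells were within 2-fold for p38i, as given above. Gzmd and Gzmf in Cd8a T cells were then higher with p38i, so the opposite directions for p38i largely rest on single cells. For p38KO, Gzmc without the richest cells stayed more than 2-fold higher in Cd4 T and lower in Cd8a T cells. In NK cells it was then higher but within 2-fold.

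Cells with Cpa3, a mast cell and basophil transcript, lay outside the 5 classes and held Gzmb above the neutrophil background. Gzmb was at 309 CPM (134 to 610) with vehicle, 771 CPM (524 to 1095) with p38i and 72.5 CPM (53.3 to 96.5) with p38KO, from 1 of 7, 4 of 10 and 6 of 99 cells. One p38KO cell held 26 of the 47 UMIs. No Prf1 UMI was found in these cells.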

How the results depend on the processing

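No paired analysis was possible because each condition was 1 library, and for the same reason no replicate could be left out. The summed members gave these log2 ratios, p38i first and p38KO second where both moved by more than their interval. With classes called after thinning they were -0.98 and -0.999 in Cd8a T, -0.15 and -0.18 in Cd4 T, 1.205 and 1.70 in Trdc T and 0.36 and -0.38 in NK cells. As means of each cell's CPM they were -0.45 and -0.57, -0.42 and -0.93, 0.98 and 1.18, and -0.023 and -0.23 in the same order. Without the cell richest in members they were -0.37 and -0.83 in Cd8a T, 0.90 and 1.07 in Trdc T and 0.12 and -0.27 in NK cells, and -0.84 for p38KO in Cd4 T cells. Without cells holding Csf3r or C1qa they were -1.06 and -0.92 in Cd8a T and 0.090 and 0.024 in NK cells, and 1.49 for p38i in Trdc T cells. Median-ratio scaling gave -1.24 in Cd8a T and -0.062 in NK cells for p38KO. Pairs of member and class past 2-fold were 11 of 23 for p38i and 20 of 25 for p38KO. Over all genes with 20 or more UMIs, 4.87 to 12.2% by class were past 2-fold for p38i and 7.76 to 13.7% for p38KO. Without the richest cell p38i had 5 of 19, and without each member's own top cell 4 of 18. No share over all genes was counted with cells left out. For p38i in Cd8a T cells, Gzmd reversed to 1.40 and Gzmf to 0.85 without the richest cell, and Gzmd to 0.10 as a mean of each cell's CPM. Gzmf in NK cells reversed to -1.07 for p38i and -3.41 for p38KO after thinning. Cells that had lost their Cd3e UMIs could enter the NK class there, and their part was not tested. Dropping the cell filter and taking off free RNA left 42 of 42 single values within their intervals. Depth limited Trdc T cells most, with 137 to 219 member UMIs per library.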
